A study of Ovis aries with 12 samples.

Results

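*HOXA10*, a homeobox gene that marks the uterus along the reproductive tract of mice and humans, was high in 4 of 12 RNA-seq libraries from the sheep oviduct and near 0 in the other 8. The 4 libraries were ML2, ML3, wF2 and wL2, and they were chosen by a single rule: the summed FPKM (a measure of fragments per transcript, divided by transcript length and by the mapped fragments of the library) of the *HOXA10* transcripts had to be above 5. The table holds 1 such transcript. It read 50.3 FPKM in ML2, 57.5 in ML3, 36.5 in wF2 and 11.5 in wL2, which lies closest to the threshold on the upper side. In the other 8 libraries it read 0 at the lowest, 0.0968 at the median and 1.05 at the highest, in MF1, the library closest to the threshold from below. Thresholds of 2 and of 10 FPKM pick the same 4 libraries. Because the libraries were divided by a measured value, every difference between the 4 and the 8 is given below as a description and without a test.

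Each library came from the isthmus of the oviduct of 1 Small-Tailed Han ewe, with 3 ewes in each of 4 groups. The letter M stands for *FecB* BB ewes, homozygous for the fecundity allele of the BMP receptor gene *BMPR1B*, and w for *FecB* ++ ewes, which lack that allele. F and L stand for the follicular and luteal phases. All ewes, aged 2.5 ± 0.5 years, had carried a vaginal progesterone device (CIDR, 300 mg) for 12 days. Tissue was taken 45 to 48 h after its removal for the follicular phase and on day 9 for the luteal phase. Of the 3 libraries in each group, 2 from ML, 1 from wF, 1 from wL and 0 from MF were *HOXA10*-high, so both genotypes and both phases are among them, but MF is not. Where along the isthmus each piece of tissue was cut is not given in the sources used here.

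HOX genes encode transcription factors and lie in clusters whose gene order follows the order in which they are expressed along the body. In the female tract of mice and humans, *HOXA9* marks the oviduct, *HOXA10* the uterus, *HOXA11* the lower uterus and cervix, and *HOXA13* the upper vagina. The isthmus itself is the narrow, muscular end of the oviduct that opens into the uterus, and a piece of it holds ciliated and secretory epithelium, stroma, vessels and smooth muscle. Such bulk tissue gives 1 value per gene over all of these cells, so fewer cells of a type and less RNA per cell cannot be told apart.

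The libraries of both sets overlapped in their sums and in their shares of lncRNAs and zeros. The FPKM summed to 354791 to 428736 in the 4 libraries and to 349733 to 456531 in the other 8, and lncRNAs made up 4.54 to 7.31% and 3.21 to 9.61% of these sums. Of the listed transcripts, 23.8 to 31.1% stood at 0 in the 4 and 25.6 to 30.2% in the 8. Only FPKM were analysed, which leaves the depth of a single value unknown. An estimate from the steps between the lowest FPKM put the fragments per library, relative to MF1, at 0.766 to 1.15 in the 4 and 0.670 to 1.02 in the 8. It is weak, since the ratio it used was shared by only 2.09% (ML1) to 3.75% (wL1) of low transcripts. The group averages of clean reads that the paper gives lie closer together than these estimates.

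Differences are given as the mean of log2(FPKM + 0.1) in the 4 libraries minus that in the other 8, which understates the change of low genes. A gene was called apart where each of the 4 libraries lay on the same side of each of the 8 and the difference was at least 1. Of 8674 genes with a mean of at least 0.1 FPKM, 295 were apart and higher (3.40%) and 431 were apart and lower (4.97%) in the *HOXA10*-high libraries. These shares describe the division that *HOXA10* made and serve only as the background for the gene lists. The median difference of all 8674 genes was 0.01. Scaling all libraries to equal FPKM sums moved that median to 0.12, and every difference below is relative to a median of this size. The higher genes differed by a median of 1.65 and the lower genes by a median of -2.09, with 22 genes higher and 97 lower by 3 or more. The plot of all genes shows the lower genes reaching further from 0, and at higher abundance, than the higher ones.

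**Figure D1:**
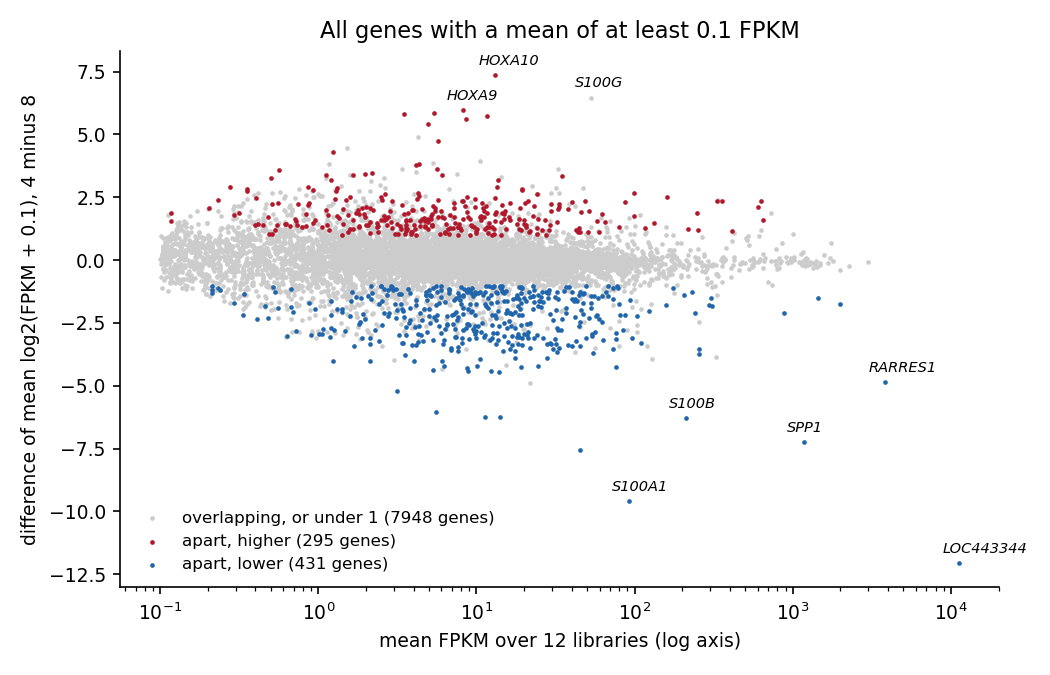
Difference of mean log2(FPKM + 0.1), the 4 HOXA10-high libraries minus the other 8 (vertical axis), against the mean FPKM over 12 libraries (horizontal log axis), 1 point per gene. Red points are the 295 genes apart and higher, blue points the 431 apart and lower and grey points the other 7948; LOC443344, at the lower right, is the most abundant of the 8674 genes.

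*HOXA9* was high in the same 4 libraries as *HOXA10*, but in another order. It read 32.7 FPKM in ML2, 9.86 in ML3, 12.4 in wF2 and 40.9 in wL2, against 0.0181, 0.177 and 0.784 FPKM at the lowest, the median and the highest of the other 8. wL2, lowest of the 4 in *HOXA10*, was thus the highest in *HOXA9*. The ratio of *HOXA9* to *HOXA10*, both in FPKM and so per length, was 3.56 in wL2, 0.650 in ML2, 0.340 in wF2 and 0.172 in ML3. The third HOX gene that was apart was *HOXD8*, with 6.55, 3.44, 5.75 and 3.87 FPKM in ML2, ML3, wF2 and wL2, compared with 0.514 to 2.14 in the other 8 (difference 1.75).

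Genes at the far end of the clusters divided the 4 libraries among themselves. *HOXD10* read 19.3 FPKM in ML2, 22.4 in ML3 and 8.61 in wF2, but only 0.205 in wL2, within the range of the other 8 libraries (0 to 0.253). *HOXA11* stood at 14.01 FPKM in ML3, while ML2 (0.557), wF2 (0.703) and wL2 (0.0563) stayed below 1 and the other 8 reached 0.129 at most. *HOXB9* was likewise highest in ML3, at 2.45 FPKM, against 0.0684 to 0.432 in the remaining 3 and 0.0277 to 0.261 in the 8. ML3 was the highest of the 12 libraries in all 3 genes, and wL2 lay within the range of the 8 in all 3.

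In *HOXC6*, *HOXC9* and *HOXC10* ML3 was the lowest of the 4. *HOXC9* read 5.91 FPKM in ML2, 3.17 in wF2 and 9.86 in wL2, above the 0.184 to 2.66 of the other 8, and 0.301 in ML3, inside it. *HOXC10* read 2.89 FPKM in ML2 and 1.45 in wF2 against at most 0.0568 in the other 8, with 0.219 in wL2 and 0.0493 in ML3. *HOXC6* stood at 8.89, 8.67 and 12.5 FPKM in ML2, wF2 and wL2, at 1.56 in ML3 and at 1.45 to 5.80 in the other 8. In each of these 3 genes ML3 fell within the range of the 8 libraries while ML2 and wF2 lay above it.

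HOX genes nearer the front of the clusters overlapped between the sets. *HOXA5* read 5.62 to 22.1 FPKM in the 4 and 10.96 to 19.3 in the 8, and *HOXB3* and *HOXC5* differed by -0.23 and -0.66. *HOXA2*, *HOXB5* and *HOXB7* were slightly higher on average (0.82, 0.33 and 0.83) with overlapping values. Of 39 HOX genes, 22 were listed and 16 passed the filter, of which 3 were apart and higher and 0 lower, with a median difference of 1.25. One of the 3 is *HOXA10*, which divided the libraries and is apart for that reason, and without it 2 of 15 were higher with a median of 0.99. The 6 that did not pass were *HOXB1*, *HOXB13*, *HOXC12*, *HOXC13*, *HOXD1* and *HOXD13*. Leaving out ML3 raised the count to 7, and leaving out ML1 or wL2 raised it to 5. Pattern genes of the Müllerian duct, from which oviduct and uterus form, overlapped for the most part, with 1 of 16 apart and higher (median difference 0.26, and 2 without ML1 or wL2). That gene was *PTCH1*, the receptor and a target of hedgehog signals, at 10.7 to 29.1 FPKM against 5.13 to 10.5.

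**Figure D2:**
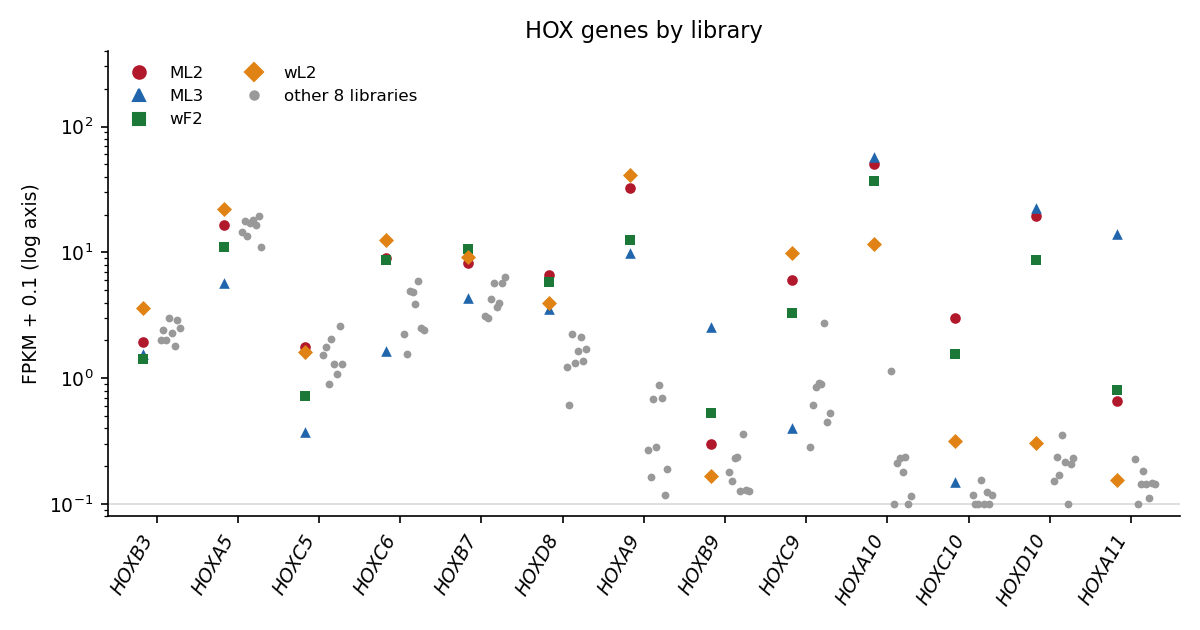
FPKM + 0.1 of 13 HOX genes on a log axis, with a coloured symbol for each of ML2, ML3, wF2 and wL2 and grey points for the other 8 libraries. HOXA9, HOXA10 and HOXD8 lie above all grey points in all 4 libraries, HOXD10 in all but wL2, and HOXA11 reaches 14.01 FPKM only in ML3.

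The leading genes after the HOX pair encode proteins of several kinds, among them a ribonuclease, a nuclear receptor, lipid enzymes and a prostaglandin receptor. *RORB*, an orphan nuclear receptor of the ROR family, read 32.4 FPKM in ML2, 46.8 in ML3, 13.1 in wF2 and 7.43 in wL2, against 0.0508, 0.388 and 0.989 at the lowest, the median and the highest of the other 8 (24.9 ± 18.1 against 0.413 ± 0.345, mean ± SD, n = 4 and 8). Its order over the 4 libraries was that of *HOXA10*. *PLA1A*, a phospholipase that acts on phosphatidylserine, read 16.9, 19.3, 46.0 and 52.3 FPKM in ML2, ML3, wF2 and wL2, compared with 0.0639 to 1.61 in the 8. Here the *FecB* ++ libraries were the higher pair. *ALOX12*, a lipoxygenase that oxidises arachidonic acid, stood at 4.60, 3.07, 5.49 and 0.931 FPKM against at most 0.463.

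*PTGFR*, the receptor for prostaglandin F2α, which drives contraction of smooth muscle and loss of the corpus luteum, read 11.8 FPKM in ML2, 29.6 in ML3, 12.5 in wF2 and 5.75 in wL2. The other 8 libraries ranged from 0.576 over a median of 0.881 to 1.56 FPKM, and the mean of the 4 was 15.4 times theirs (difference 3.63). Within groups the difference was 4.12 in ML, 3.76 in wF and 2.93 in wL. *RNASE9*, a member of the ribonuclease A family best known from the epididymis of mice and humans, was at 4.45, 5.46 and 4.85 FPKM in ML2, ML3 and wF2 and at 26.5 in wL2, against 0 to 0.154. *RASD2*, a small GTPase, ran from 2.03 FPKM in wL2 to 33.7 in ML3 against 0.162 to 0.802.

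A pair of leading genes were less clean. *OSBPL8*, which moves lipids between the endoplasmic reticulum and the plasma membrane, read 8.75 to 22.1 FPKM in the 4 libraries and 0.187 to 0.262 at the lowest and the median of the 8, but 8.33 in ML1. *PRTFDC1*, related to a purine salvage enzyme, read 6.33 to 12.3 FPKM against 0 to 5.68, so that the nearest of the 8 came within 1 FPKM of the lowest of the 4. The 2 largest higher genes without a symbol, LOC101105537 and LOC101114011, were added after their values were seen. They read 6.03 to 30.2 FPKM against at most 0.370, and 0.940 to 46.7 against at most 0.0583.

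**Figure D3:**
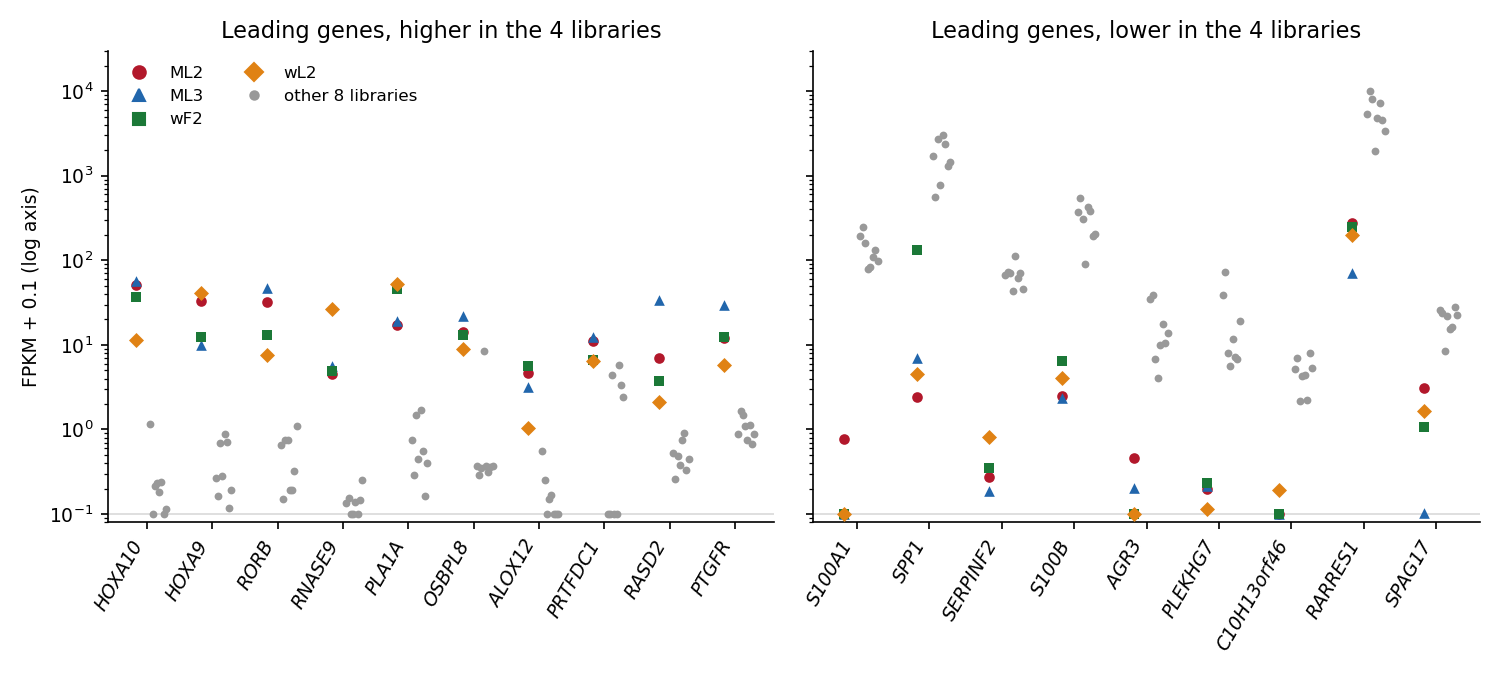
FPKM + 0.1 (log axis) of the 10 leading higher genes (left) and 9 leading lower genes (right), with a coloured symbol for each HOXA10-high library and grey points for the other 8. Points on the horizontal line are listed at 0; S100A1 is at 0 in ML3, wF2 and wL2, and SPP1 in wF2, at 131 FPKM, lies nearer to the other libraries than in ML2, ML3 or wL2.

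The largest difference of all genes was in LOC443344, the gene with the highest mean FPKM of the 8674 and likewise chosen after its values were seen. It stood at 1.01 FPKM in ML2, 0.961 in ML3, 10.2 in wF2 and 4.09 in wL2 (difference -12.05). Of the other 8, the 5 follicular libraries read 18916 FPKM in MF1, 24018 in MF2, 30041 in MF3, 20849 in wF1 and 30147 in wF3. The 3 luteal libraries read 1338 in ML1, 4792 in wL1 and 5031 in wL3. The follicular and luteal libraries among the 8 thus did not overlap, and each of the 4 lay below both. In the newer sheep reference used for names this gene has no symbol, and it lies next to *WDR77* and 3 genes from *OVGP1*, the oviduct-specific glycoprotein. Whether LOC443344 is the gene called *OVGP1* in the annotation that the study used is not settled here, so its values may be those of that glycoprotein.

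*S100A1*, a calcium-binding protein of the S100 family, was listed at or near 0, with 0.671 FPKM in ML2 and 0 in ML3, wF2 and wL2, against 78.5, 120.3 and 247 FPKM at the lowest, the median and the highest of the other 8. *S100B*, its close relative, read 2.36, 2.29, 6.36 and 3.96 FPKM in ML2, ML3, wF2 and wL2, compared with 89.6, 342 and 539. *S100A14* was also lower, at 20.6 to 41.0 FPKM against 43.5 to 158. The third pattern in the family was that of *S100G*, the calbindin that carries calcium in gut and uterus, at 32.5 FPKM in ML2, 545 in ML3, 59.1 in wF2 and 0.469 in wL2, against 0 to 0.984 in the 8. *S100G* was therefore high in 3 of the 4 libraries and within the range of the 8 in wL2, the same libraries that *HOXD10* divided. Of 13 S100 genes tested, 0 were apart and higher and 3 were apart and lower (median difference -0.65, or -1.20 with 5 lower without wF2, and -0.36 without ML3). Without wL2, *S100G* was apart and higher.

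*SPP1*, which encodes the secreted adhesion protein osteopontin, read 2.31 FPKM in ML2, 6.83 in ML3, 131 in wF2 and 4.398 in wL2, against 566, 1584 and 3031 at the lowest, the median and the highest of the other 8. wF2 kept more of it than the remaining 3, yet less than any of the 8. *RARRES1*, a gene first found by its response to retinoic acid, was the most abundant lower gene with a symbol among those named, at 274, 70.1, 248 and 197 FPKM against 1936, 5061 and 10166 (difference -4.86). Its mean was 28.8 times higher in the 8 libraries, and the difference was -3.80 within ML, -4.56 within wF and -4.32 within wL. *SERPINF2*, which encodes the plasmin inhibitor α2-antiplasmin, stood at 0.0899 to 0.708 FPKM against 42.8 to 112.

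The remaining leading lower genes were less abundant. *AGR3*, a protein disulphide isomerase found in ciliated airway cells of mice and humans, read 0 to 0.363 FPKM against 3.97 to 39.2. *PLEKHG7* stood at 0.0134 to 0.135 against 5.57 to 73.3 FPKM, and *C10H13orf46* at 0 to 0.0951 against 2.10 to 7.85. *ALDH1A2*, which makes retinoic acid in the stroma of the tract, was lower at 8.46 to 24.7 FPKM against 58.1 to 119, and *PGRMC1*, a membrane protein linked to progesterone, at 65.9 to 133 against 189 to 328. Of 11 genes of the ROR and retinoid list, 1 was apart and higher (*RORB*) and 2 lower (*ALDH1A2* and *RARRES1*), with a median difference of -0.26. Without wL2, 2 were higher. *CRABP1*, which binds retinoic acid in the cytoplasm, was not apart: it read 86.5, 148 and 87.0 FPKM in ML2, ML3 and wF2 and 6.41 in wL2, against 3.12 to 17.8. Among 7 steroid receptor genes only *PGRMC1* was apart, and *PGR*, the progesterone receptor, read 41.6 to 208 FPKM in the 4 and 27.0 to 120.1 in the 8.

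Smooth muscle genes were higher in the 4 libraries. Of 16 on the list, 11 were apart and higher and 0 lower, with a median difference of 2.12 against 0.01 for all genes. *MYLK*, the kinase that starts smooth muscle contraction, read 169 FPKM in ML2, 120.4 in ML3, 345 in wF2 and 259 in wL2, against 11.9, 31.6 and 74.9 at the lowest, the median and the highest of the 8 (223 ± 99.4 against 36.8 ± 20.0, mean ± SD). *CNN1*, calponin, read 209.7, 501, 438 and 266 FPKM against 23.9 to 107. *TPM2*, a tropomyosin, was at 565 to 1018 FPKM against 78.8 to 270.5, and *DES*, the muscle intermediate filament desmin, at 580.0 to 969 against 49.8 to 298.

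*MYOCD*, the transcriptional co-activator that sets the smooth muscle programme, was at 6.91 to 17.2 FPKM against 0.699 to 5.67. *ACTA2* and *ACTG2*, the smooth muscle actins, have near-identical coding sequences, so their split is uncertain, and only *ACTA2* was apart. Members of the list that went the other way were *CASQ2*, a calcium-binding protein of the sarcoplasmic reticulum (difference -1.14), and *RGS5*, a regulator of G proteins in vessel walls (-0.78). The mean log2 level of the list was 6.83 in ML2, 7.58 in ML3, 7.17 in wF2 and 7.05 in wL2, and 4.54 to 6.14 in the other 8. ML3 was the highest of the 4 in 12 of the 16 genes.

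Genes of motile cilia were lower, and in ML3 many were at or near 0. Of 23 on the list, 19 were apart and lower and 0 higher, with a median difference of -2.63, or -1.66 with 19 still lower when ML3 was left out. *SPAG6*, of the central pair of the axoneme, read 11.6 FPKM in ML2, 12.98 in wF2, 13.6 in wL2 and 0 in ML3, against 27.6, 46.7 and 66.3 at the lowest, the median and the highest of the 8. *RSPH4A*, a radial spoke head protein, read 14.9, 10.8, 23.9 and 0.0375 FPKM in the same order against 33.7 to 87.1, and *CFAP52*, a protein inside the doublet microtubules, 19.5, 14.6, 24.0 and 0.0357 against 42.0 to 83.1. *SPAG17*, another central pair protein, differed by -4.46, with 0.978 to 3.02 FPKM in ML2, wF2 and wL2, 0.00438 in ML3 and 8.42 to 28.3 in the 8.

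*GMNC*, which starts the multiciliated cell programme, broke this order: it read 0.360 FPKM in ML2 and 2.04 in ML3, its highest value among the 4, against 5.11 to 15.6. ML3 was the lowest of the 4 in the other 22 genes. Without ML3 the differences of *SPAG6*, *RSPH4A* and *CFAP52* were -1.77, -1.71 and -1.64 in place of -3.51, -3.42 and -3.42. The mean log2 level of the list was 3.11 in ML2, 2.70 in wF2, 3.42 in wL2 and -1.11 in ML3, and 4.27 to 5.09 in the other 8. The 4 members that were not apart, *DNAI2*, *ARMC3*, *CFAP43* and *CFAP45*, also had differences below 0.

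By list median, the tested genes of the secretory and general epithelial list, 9 of 24, were lower to a smaller extent than cilia genes. LOC443344, *SPP1* and *RARRES1*, described above, were not counted in this list and differed by more than its median. Of 9 tested, 3 were apart and lower and 0 higher (median difference -1.28, or -0.81 without ML3; 5 were lower without wF2). *EHF*, a transcription factor of epithelia, read 1.41, 0.381, 0.576 and 0.911 FPKM in ML2, ML3, wF2 and wL2, compared with 5.22 to 28.9. *EPCAM*, a surface protein of epithelial cells, was at 152, 70.9, 195 and 151 FPKM against 298 to 482, and *SPINT1*, a protease inhibitor, at 3.22 to 7.18 against 7.94 to 16.3. Epithelial RNA was thus present in all 4 libraries, since *EPCAM* remained at 70.9 FPKM in ML3, the library with many cilia genes at or near 0. *KRT8*, a keratin, read 109.8, 26.7, 144 and 120.1 FPKM against 120.9 to 276, overlapping in wF2. Genes of ion and water transport were apart in 0 of 14 (median -0.55), and the water channel *AQP9* read 106, 0.195, 7.39 and 81.4 FPKM in ML2, ML3, wF2 and wL2, compared with 45.6 to 417. *CD9*, on the secretory list, was listed at 0 in all 12 libraries, and *OVGP1* was not analysed here under that symbol, though LOC443344, described above, may be that gene.

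Other cell types differed less between the sets. Fibroblast and matrix genes had a median difference of 0.95 with 1 of 12 apart, *VIM* (vimentin, 305 to 465 FPKM against 99.7 to 289), and 3 were apart without MF3 or without wF2. Endothelial genes had a median of 0.85 with 1 of 9 apart, *ESAM*, an adhesion protein (3.85 to 6.56 against 1.36 to 2.92 FPKM), rising to 4 without ML3 or ML1 and to 3 without wL2. *KCNJ8*, a potassium channel subunit of pericytes and vessel muscle, read 16.3 to 52.2 FPKM against 3.49 to 12.3 and was the only one of 3 pericyte genes apart. Of 17 leukocyte genes, 1 was apart and lower, *TYROBP*, a signalling adaptor of myeloid cells (3.85 to 10.1 against 10.8 to 19.7 FPKM, median of the list -0.35). That count was 0 without ML3, wF2, wL1 or wL3, 2 without MF2 and 3 without wL2.

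Genes of nerve and glia went in both directions. *CDH19*, an adhesion protein of Schwann cells, read 2.47, 0.752, 1.63 and 2.79 FPKM in ML2, ML3, wF2 and wL2, compared with 0.0970 to 0.633. *S100B*, a glial marker in nerve, was lower, as given above. Of the 7 genes tested, 3 were apart and higher and 1, *S100B*, was lower (median 0.97), with 5 higher without ML3 and 2 lower without MF2 or ML2. *UPK1B*, the only mesothelial marker that passed the filter, read 1.22 to 43.7 FPKM against 21.3 to 174 and was apart only without wF2.

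Markers of the ovary and of red blood cells overlapped between the sets. Of 6 ovarian genes 0 were apart, with a median of 0.17, and summed to 5.22 to 15.0 FPKM in the 4 against 3.91 to 16.5 in the 8. The one red cell gene tested, *HBQ1*, was at 0.0847 to 0.749 FPKM against 0 to 0.402. Ribosomal protein genes (22, median -0.07), the 13 mitochondrial protein genes (0.23) and immediate early and heat shock genes (10, 0.13) had 0 apart in either direction. How far the levels of smooth muscle, ciliated and other markers go with the remaining differences was not tested. Cell cycle genes had a median of -0.69 and 0 of 17 apart. Within groups that median was 0.22, so its sign depended on which libraries were compared.

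**Figure D4:**
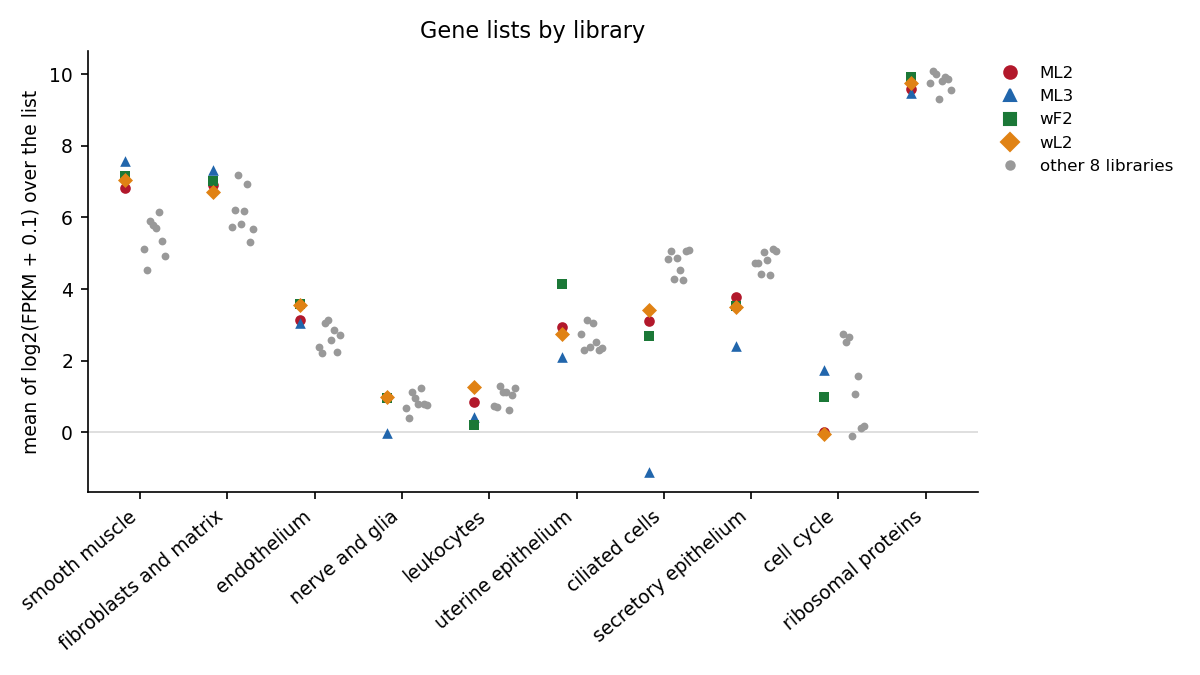
Mean of log2(FPKM + 0.1) over the tested members of 10 gene lists, with a coloured symbol for each HOXA10-high library and grey points for the other 8. The 4 libraries lie above the 8 for smooth muscle (6.83 to 7.58 against 4.54 to 6.14) and below them for ciliated cells, with ML3 at -1.11, and secretory epithelium.

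Among genes of the uterine epithelium and stroma, 14 of 19 tested had a difference above 0, compared with 50.7% of all 8674 genes. Some were high in only 1 or 2 of the 4 libraries. Of the 19, 3 were apart and higher (*PLA1A*, *STC1* and *HAND2*) and 2 lower (*SPP1* and *RARRES1*), with a median of 0.97 that was 0.59 without wF2 and 0.55 without wL2. *STC1*, the hormone stanniocalcin, which sheep uterine glands secrete, read 3.08, 3.34, 5.35 and 3.29 FPKM in ML2, ML3, wF2 and wL2, compared with 0.503 to 1.59. *HAND2*, a transcription factor of uterine stroma that responds to progesterone in mice, was at 12.0 to 25.6 FPKM against 4.10 to 7.23.

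Of the 19 genes, wF2 was the highest of the 4 libraries in 9. *GRP*, gastrin-releasing peptide, which the glands of the sheep uterus make, read 386 FPKM in wF2 and 1.21, 0.562 and 0.154 in ML2, ML3 and wL2, against 0 to 3.32 in the 8. *SERPINA14*, the uterine milk protein, read 6.83 FPKM in wF2 and 0.112 to 0.270 in the remaining 3, against 0 to 2.25. The chemokine *CXCL14* was at 19.3 FPKM in wF2 and 17.2 in ML2, at 1.73 in ML3 and 0.279 in wL2, and at no more than 0.741 in the 8. *HSD11B1*, which activates cortisol, was at 4.54 FPKM in wF2, 1.04 in wL2 and 0 in ML2 and ML3, against 0 to 0.531. Other secreted products on the list did not follow: *LGALS15* and *IGFBP1* did not pass the filter and were listed at 0 in wF2. *CST3* was listed at 0 in all 12 libraries and so could show no pattern in either direction.

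The 4 libraries thus differed among themselves along several lines. ML3 held the most *HOXA10*, *HOXA11*, *HOXB9* and *S100G*, was the highest of the 4 in 153 of the 295 higher genes and the lowest in 324 of the 431 lower genes. Without ML3, 344 genes were apart and higher and 412 lower, of which 269 and 384 were among the 295 and 431. wL2, with the least *HOXA10*, was the highest in 36 and the lowest in 26. ML2 took those places in 46 and 23 genes, and wF2 in 60 and 58.

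At the level of transcripts the division was similar in kind. Of 30401 mRNA transcripts tested, 824 were apart and higher (2.71%) and 1035 lower (3.40%), with 1429 higher when wF2 was left out. Of these, 487 and 559 were among the 18161 tested transcripts that could not be paired with a gene of the newer reference. XM_004002316.3 (difference -11.97) read 0.296, 0.0528, 2.51 and 1.63 FPKM in ML2, ML3, wF2 and wL2, compared with 355, 3857 and 9254 at the lowest, the median and the highest of the 8. XM_012181932.2 was listed at 0 in all 4 and at 13.2 to 50.8 FPKM in the 8.

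Among the higher unpaired transcripts, XM_012095883.2 read 186, 503, 167 and 52.9 FPKM in ML2, ML3, wF2 and wL2, compared with 0 to 37.4, and XM_012112171.2 81.3, 63.8, 224 and 38.3 against 0 to 6.27. XM_004017731.3, which carries the gene identifier of the synaptic vesicle protein gene *SV2B* in the study's tables, read 20.3, 51.9, 1.55 and 7.73 FPKM against at most 1.44. XM_012105419.1, by the same route a transcript of *PRXL2A*, a peroxiredoxin-like protein, read 17.9, 1.14, 21.1 and 4.95 against at most 0.0333.

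The division was also seen in lncRNAs. Of 16320 noncoding transcripts tested, 207 were apart and higher (1.27%) and 232 lower (1.42%). LNC_003065 read 11.02, 11.7, 4.43 and 1.84 FPKM in ML2, ML3, wF2 and wL2, compared with 0.0364 to 0.211, the order that *RORB* and *HOXA10* had. XR_001039952.1 (difference 6.01) read 17.3, 11.1, 10.1 and 4.26 FPKM against 0 to 0.266. LNC_001173 was at 1.26 to 4.03 FPKM against 0 to 0.692, and XR_001022088.2, a noncoding transcript under the gene identifier of *MINAR1* in the study's tables, at 0.354 to 2.03 against 0 to 0.277. Most noncoding calls rest on low values: with 1 FPKM added before the log, 21 were higher and 31 lower. The higher count was 317 without MF3, 371 without wL2, 397 without ML3 and 480 without wF2, and the lower count 353 without wL2 and 392 without ML2.

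Among the named noncoding transcripts, the lower ones reached higher levels than the higher ones. LNC_000311 read 0.0236, 0.0714, 0.0410 and 0 FPKM in ML2, ML3, wF2 and wL2, compared with 0.805, 34.8 and 171 at the lowest, the median and the highest of the 8 (difference -7.41). LNC_000310 was at 0 in ML2, ML3 and wF2 and at 0.0865 in wL2 against 0.914 to 19.3, and LNC_001800 at 0 in all 4 against 1.39 to 35.3. LNC_007384 read 0.368, 0.205, 2.95 and 0.0463 FPKM against 3.46 to 81.6, so that wF2 came within 1 FPKM of the lowest of the 8. XR_001436254.1 was at 0 in ML2 and ML3 but at 4.79 in wF2 and 5.62 in wL2, against 15.9 to 44.0.

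For 3 of these noncoding transcripts, known only by a number, the start of the sequence is shown so that they can be identified. Each gives the first 200 bases of the sequence the study tabulated, 5′ to 3′, with no part marked by capitals.
LNC_000311: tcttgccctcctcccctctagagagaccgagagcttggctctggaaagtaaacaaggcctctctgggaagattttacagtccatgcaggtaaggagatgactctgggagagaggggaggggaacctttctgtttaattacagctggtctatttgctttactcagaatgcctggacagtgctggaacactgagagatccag
LNC_007384: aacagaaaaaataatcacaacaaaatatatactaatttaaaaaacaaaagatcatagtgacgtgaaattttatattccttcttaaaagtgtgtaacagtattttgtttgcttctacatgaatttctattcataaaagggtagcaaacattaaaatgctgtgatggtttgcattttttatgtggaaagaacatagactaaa
LNC_019497: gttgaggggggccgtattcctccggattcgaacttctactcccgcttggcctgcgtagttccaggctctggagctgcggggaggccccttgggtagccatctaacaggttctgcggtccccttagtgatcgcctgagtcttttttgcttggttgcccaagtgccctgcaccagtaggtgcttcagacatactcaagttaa
LNC_019497 belongs to the higher transcripts, at 2.80, 1.70, 1.29 and 1.99 FPKM in ML2, ML3, wF2 and wL2, compared with 0 to 1.04 in the other 8. Over the first 399 tabulated bases, G and C make up 57.1% in LNC_019497, 51.4% in LNC_000311 and 30.1% in LNC_007384. Neither of the study's qPCR primers for each transcript lies in these bases, so they come from parts not shown. Their place in the genome was not used here.

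The study's own comparisons, phase and genotype, were tested across all genes. limma with 4 group means over all 12 libraries called 74 genes by phase pooled over genotypes (0.853% of 8674) and 1 by genotype (0.0115%), and 2 between MF and wF (0.0231%), at an adjusted p under 0.05 and a change of at least 1. Of the 86 genes named in the text that passed the filter, 0 had a limma adjusted p under 0.05 by phase (smallest 0.0714, *UPK1B*) and 0 by genotype (smallest 0.994). Many of the 86 were picked because ML2, ML3, wF2 and wL2 lay apart from other libraries of their own groups. That widens the spread within groups that limma uses. These tests therefore cannot show that the genes do not differ by phase, genotype or their interaction. *HOXA10*, whose values divided the libraries, is counted among the 86, but no p is given for it: its change between MF and ML was -4.92 (SE 2.74). MF holds 0 and ML 2 of the *HOXA10*-high libraries.

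In that last comparison, in which limma called 147 genes (1.69%), 1 of the 86 genes passed. *PTCH1* was lower in MF than in ML by 1.72 on the log2 scale (SE 0.39, limma adjusted p = 0.0492). It was named because it was apart and higher in the 4 libraries, of which ML holds 2 and MF 0. That choice favours a low p in this comparison, so the p cannot show a change of *PTCH1* by phase. Without the 4 libraries, where ML is the single library ML1, its change was -0.84. For LOC443344 limma gave a change of 6.50 (SE 2.69) towards the follicular phase with an adjusted p of 0.215 over all 12 libraries.

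For some genes the changes were also estimated with the 4 libraries left out. In that fit ML holds 1 library, so these changes are given without a p-value. Of the 86 genes, 79 passed the filter there. By phase, the largest changes towards the follicular phase were in LOC443344 (3.26), *UPK1B* (2.17) and *S100B* (1.59). Towards the luteal phase they were in *OSBPL8* (-2.37), *SV2B* (-2.11) and *EHF* (-1.68). The gene sum of *SV2B* leaves out XM_004017731.3. Between MF and ML, where ML is the single library ML1, the largest were -4.66 for *OSBPL8*, 4.16 for LOC443344 and -3.97 for *SV2B*. *UPK1B* (2.85), *AGR3* (2.37), *PLEKHG7* (2.32) and *S100B* (2.14) came next. Between ML and wL the largest were -4.82 for *PRTFDC1*, 4.54 for *OSBPL8* and 3.96 for *SV2B*. These values of *OSBPL8* rest on ML1, which read 8.33 FPKM. Over all 12 libraries the interaction of phase and genotype had a smallest limma adjusted p of 0.375 among the 86 genes.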

How the data were processed

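RNA from the oviduct isthmus of 12 ewes was sequenced after NEBNext Ultra library preparation. The authors trimmed reads with fastp, aligned them with HISAT2 to Oar_v3.1, assembled transcripts with StringTie, and deposited their FPKM, 63643 transcripts in 1 table, a unit already scaled to length and library size. The study's own tests used counts, which were not analysed here, so tests for counts were not used. A low FPKM can rest on few fragments.

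Of 42311 mRNA transcripts, 15116 (35.7%, 67.8% of their FPKM) were paired with 10769 genes through RefSeq names of the assembly ARS-UI_Ramb_v3.0: 853 with their version, 14250 without it and 13 mitochondrial ones by gene identifier. Gene sums are incomplete for that reason, and no coordinates were used. The 21332 noncoding transcripts are those numbered LNC, XR or NR. A further 3 named transcripts took a gene identifier from the study's tables.

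Values were taken as log2(FPKM + 0.1), and features with a mean of at least 0.1 FPKM were kept. Phase, genotype and their interaction were fitted with limma 3.58.1 in R 4.3.3 (trend, 4 group means, 12 libraries, 2-sided, Benjamini and Hochberg over all genes). Python 3.11.15 (numpy 2.4.6, pandas 2.3.3, matplotlib 3.10.9) ran the other steps. Only the calls of genes apart and the limma comparison of MF with ML were tried on simulated data. Each library is 1 ewe, so p-values measure the spread between ewes.

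Named are the markers *HOXA10*, *HOXA9*, *RORB*, *S100A1* and *SPP1*, every HOX gene listed, the 10 genes (symbol, mean of at least 1 FPKM in the higher set) and 5 noncoding transcripts per direction with the largest difference among those apart, up to 4 apart members per list, and list members at 0 or that an account turns on. A few genes that this rule picks are not reported here. The 5 unpaired mRNA transcripts per direction follow the same rule. The libraries, the genes and the 22 lists were chosen with earlier results of these data known. Counts apart in lists that hold a marker were therefore partly fixed beforehand. This holds for the HOX list, the S100 list (*S100A1*), the ROR and retinoid list (*RORB*) and the uterine list (*SPP1*). Other settings were thresholds of 2 and 10 FPKM for *HOXA10*, 1 added before the log, no filter, a mean of at least 1 FPKM, quantile and equal-sum scaling, no minimum difference, same sign within ML, wF and wL, a replicate block, and leaving out each library or the 4 libraries.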

Additional observations from a re-analysis of the deposited data

Results flagged for a closer look

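Within the 4 and the 8 libraries, the highest or the lowest library of each gene picked by the naming rule, except *HOXA10*, and each gene list was compared with the spread of its own set by Dixon's test. Of 146 sets, 19 held a library far from the others. Chance gives about 1 in 20 for independent sets, which these are not, since lists and their members were both examined. Values in this paragraph and the next are log2(FPKM + 0.1), or the mean of it over a list. ML3 stood apart in the ciliated list (-1.11, against 2.70 to 3.42 in ML2, wF2 and wL2), in *SPAG6* (-3.32), *RSPH4A* (-2.86) and *CFAP52* (-2.88), in the nerve and glia list (-0.0252) and, upwards, in *DES* (9.92). wL2 stood apart in *RNASE9* (4.73), *C10H13orf46* (-2.36) and the ROR and retinoid list (3.18). wF2 did so in *STC1* (2.45) and in the Müllerian list (2.002), and ML2 in *S100A1* (-0.38). In *C10H13orf46* and *S100A1* the remaining 3 libraries were at 0 FPKM, so that any value above 0 would have stood apart.

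Among the other 8 libraries, MF1 was low in the ovary list (-1.30). ML1 was high in *OSBPL8* (3.08, against -1.80 to -1.42) and in the Müllerian list (2.52). MF2 was low in *HOXD8* (-0.70) and in the ion and water transport list (2.48), wF3 was high in the pericyte list (1.24) and wL3 low in the immediate early and heat shock list (2.26).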

How the results depend on the processing

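Counts of features apart changed with low values and with single libraries. With 1 added before the log, 527 mRNA transcripts were higher, and 21 noncoding transcripts were higher and 31 lower. With a mean of at least 1 FPKM, 22 noncoding transcripts were higher and 40 lower. With no minimum difference 467 genes were higher. Asking only for the same sign within ML, wF and wL gave 634 genes higher and 743 lower, 2440 and 2555 mRNA transcripts, and 1168 and 1046 noncoding ones. Leaving out 1 library at a time gave 287 to 432 genes higher and 412 to 532 lower, 833 to 1429 and 1045 to 1385 mRNA transcripts, and 216 to 480 and 254 to 392 noncoding transcripts. The cause of these shifts was not tested beyond the fewer libraries that a feature must separate.

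Differences of named genes kept their sign in all settings for every gene that was apart. With 1 added, 18 genes changed in size by more than the spread of the libraries, among them *HOXA10*, whose difference went from 7.36 to 4.89, and *S100A1* (-9.59 to -6.83). Equal-sum scaling raised the share of higher genes among those apart from 40.6 to 46.6%.

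For phase and genotype, limma called 74 genes pooled by phase, 1 by genotype, 147 in MF against ML, 2 in MF against wF, 0 in wF against wL (763 at an unadjusted p under 0.05) and 0 in ML against wL (1132). With 1 added these were 0 by genotype, 1 in MF against wF and 1 in ML against wL. With no filter they were 2 by genotype, 84 in MF against ML and 1 in wF against wL. With a mean of at least 1 FPKM they were 0 by genotype and 0 in MF against wF, and with quantile normalization 1 in MF against wF. Without the *HOXA10*-high libraries they were 13 by genotype, 4 in wF against wL and 18 in ML against wL, and MF against ML and ML against wL then rest on 1 ML library, assumed to vary like the rest. Leaving out 1 library gave 5 (without MF2) to 102 by phase, 0 to 2 by genotype, 1 (without MF2) to 239 (without wL2) in MF against ML, 0 to 2 in wF against wL, 1 to 4 in MF against wF and 0 to 12 in ML against wL. The cause was not tested.

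The labels number the ewes 1 to 3 in each group, but same-numbered libraries did not deviate together in every pair: r was -0.25 to 0.40 over 18 pairs, and over 0.1 in 7. Of the *HOXA10*-high libraries, ML2, wF2 and wL2 carry the number 2. Among them r was 0.15 (ML2 and wF2), 0.19 (ML2 and wL2) and 0.38 (wF2 and wL2). MF2 had r of 0.003, -0.16 and -0.20 with ML2, wF2 and wL2. ML3, numbered 3, had r of 0.35 with wF2 and 0.36 with wL2. The numbers were therefore not taken as pairs. With a replicate block, limma called 66 genes by phase, 0 by genotype, 55 in MF against ML and 1 in MF against wF.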

Other observations

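Some genes outside the lists, chosen after their values were seen, had large differences. *LPAR3*, a receptor for lysophosphatidic acid, read 23.6 FPKM in ML2, 0 in ML3, 14.9 in wF2 and 17.3 in wL2, against 40.2, 116 and 177 at the lowest, the median and the highest of the other 8. *MAL*, a membrane protein of apical transport, read 40.6, 19.1, 57.8 and 18.4 FPKM in the same order against 2.02 to 5.61. *KIF5C*, a kinesin of neurons, was at 20.8, 2.89, 12.4 and 26.8 FPKM against 0.481 to 2.42, with ML3 the lowest of the 4. *NGB*, neuroglobin, was at 0.0940 to 0.281 FPKM against 0.989 to 19.6.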
